A study of Mus musculus with 4 samples.

Results

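The results concern 9 genes of chromosome 11 that lie 1 to 20 Mb from Trp53, the gene of the transcription factor p53, in heart endothelial cells of mice: Xaf1, Tlcd2, AA465934, Aspa, Ltc4s, Usp43, Fam64a, Unc45b and Slfn5os. They are 9 of 24346 genes in the deposited table and 9 of 698 listed in that stretch of the chromosome. They were chosen by their FPKM values, which separated the libraries labelled ECp53KO from the controls in an earlier test of the same 4 libraries, so that difference is described here and not tested. Cells were sorted by flow cytometry from hearts of mice labelled young, on a C57BL/6 background, and are labelled as freshly isolated. The ECp53KO group holds 2 libraries, ECp53KO_170 and ECp53KO_172, and the wild-type Ctrl group 2, Ctrl_178 and Ctrl_182. ECp53KO is taken to mean an endothelial p53 knockout, after the series title, since no label spells it out. The labels name neither the Cre driver nor the deleted exons, give no age in weeks, and do not tie each library to its own mouse, so every spread below, and every p-value with it, describes variation between libraries that may be technical. Levels are in FPKM, fragment counts scaled by transcript length and by library size, and Trp53 itself read 4.41 FPKM in ECp53KO_170 and 2.45 FPKM in ECp53KO_172, against 52.1 FPKM in Ctrl_178 and 28.8 FPKM in Ctrl_182. The 9 genes form no family, and only their position and their difference set them together.

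p53 activates genes that stop the cell cycle or start apoptosis, and represses cell cycle genes indirectly through p21. A gene on the chromosome of a targeted allele is inherited with that allele more often the closer it lies. The labels do not say in which strain the allele was made or for how many generations it was crossed, so loss of p53 and any sequence linked to the allele cannot be told apart by this design. Of the 9 genes, Xaf1 belongs to the interferon response and opposes an inhibitor of caspases, Tlcd2 and Aspa act in lipid and acetate metabolism, Ltc4s makes a vasoactive lipid mediator, Usp43 removes ubiquitin, Fam64a is expressed in dividing cells, Unc45b folds muscle myosin, and AA465934 and Slfn5os are long noncoding RNAs.

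The promoters of 3 genes that were higher in ECp53KO are printed here. They are shown because Xaf1, Tlcd2 and AA465934 had the largest positive differences of the 9. The table of promoters, from RefSeq on GRCm38.p6, gives 250 bases before 1 start of each gene, and each run is printed up to the base before the gene's first annotated position, on the plus strand of chromosome 11. This leaves out 168 bases for Xaf1 and 26 for Tlcd2, whose annotation also holds earlier starts. The capitals mark the CCAAT box on either strand.
Promoter of Xaf1, chr11:72301379-72301460
Xaf1: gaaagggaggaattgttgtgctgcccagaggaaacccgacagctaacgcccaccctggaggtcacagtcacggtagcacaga
Promoter of Tlcd2, chr11:75467800-75468023
Tlcd2: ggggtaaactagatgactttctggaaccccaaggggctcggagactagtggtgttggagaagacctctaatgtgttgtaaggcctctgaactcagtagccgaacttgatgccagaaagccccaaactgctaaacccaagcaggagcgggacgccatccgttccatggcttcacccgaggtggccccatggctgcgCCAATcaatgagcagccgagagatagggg
Promoter of AA465934, chr11:83291449-83291698
AA465934: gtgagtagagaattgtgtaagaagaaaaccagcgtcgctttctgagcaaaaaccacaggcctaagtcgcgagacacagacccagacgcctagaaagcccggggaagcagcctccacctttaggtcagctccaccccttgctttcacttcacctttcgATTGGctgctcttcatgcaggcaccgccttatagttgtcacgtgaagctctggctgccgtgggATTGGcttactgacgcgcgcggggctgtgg
CCAAT was found once for Tlcd2, on the plus strand, and at 2 places for AA465934, both on the minus strand, where it reads ATTGG. The 250 bases before the start of 33.8% of 32851 promoters hold it. The interferon-stimulated response element core, which 2.98% of promoters hold on either strand, was not found in the full 250 bases of these genes. For p53 too, only 1 fixed form of the core was searched, as 2 copies with no spacer. This pair, which 0.49% of promoters hold, was not found in these genes either. Other forms of either core were not searched, so whether these promoters hold them is not known. Of the 9 genes, 7 have an entry in the table of promoters, and the form searched of the interferon-stimulated response element core was found in none of the 7. A match or its lack describes these windows only.

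All 9 genes had their 2 ECp53KO values on one side of both Ctrl values. Over all 11332 genes whose mean reached 1 FPKM, 35.9% separated in this way. Of the 9, 4 were higher in ECp53KO (19.1% of all genes) and 5 lower (16.8%). Each also had an unadjusted limma p under 0.01, as 0.812% of all genes did. By limma with adjustment, Xaf1 was the one member past 0.05, where 0.0265% of all genes were higher and 0.0882% lower. A log2 difference of at least 1 without overlap was met by 8 of the 9, all but Usp43, and by 1.19% of all genes. Since the choice used this contrast, nothing is read from these counts. The members ranged in mean level over the 4 libraries from 4.31 to 83.9 FPKM, and all 9 passed the filter on low values.

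**Figure D1:**
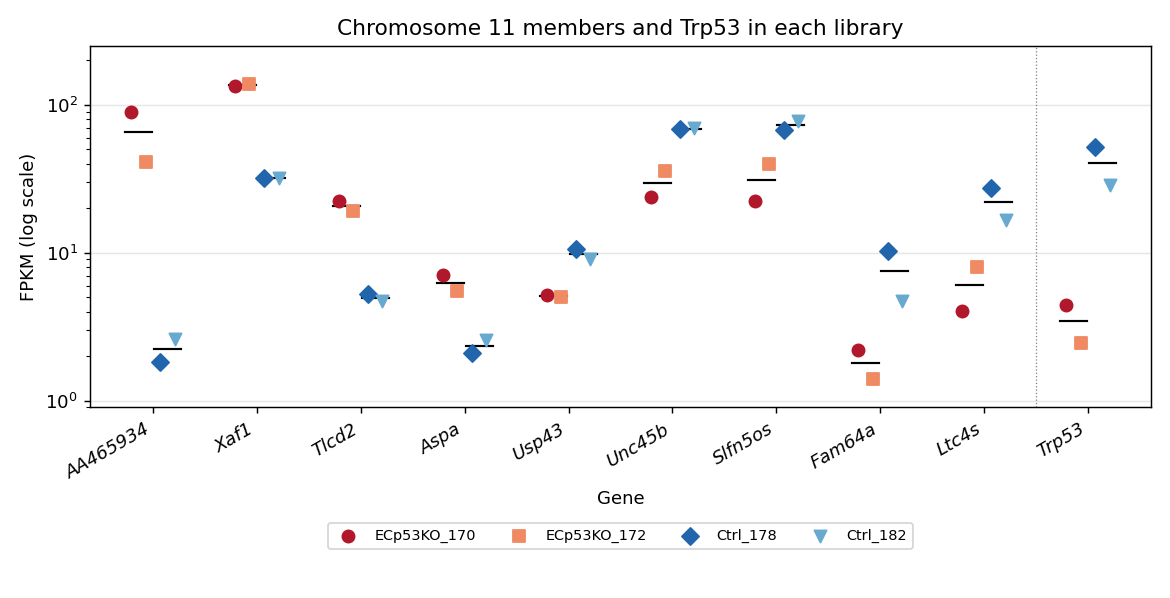
Level of each of the 9 genes and of Trp53 in the 4 libraries, in FPKM on a log axis. Each point is 1 library and each black line a group mean of 2 libraries. AA465934 shows the widest gap (89.2 and 40.8 against 1.83 and 2.63 FPKM), and in Usp43 the group means lie closest (5.20 and 5.03 against 10.7 and 9.07 FPKM).

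Xaf1, which encodes a factor that binds the caspase inhibitor XIAP and is induced by interferon, read 133.9 FPKM in ECp53KO_170 and 138 FPKM in ECp53KO_172, against 31.8 FPKM in each Ctrl library. The libraries of a group were nearly alike, 1.03 times apart in ECp53KO and 1.0 times apart in Ctrl, while any ECp53KO library was 4.21 to 4.35 times above any Ctrl library. The means were 136 ± 3.06 and 31.8 ± 0.0237 FPKM (SD, n = 2 each), and the log2 fold change on the log2(FPKM + 1) scale was 2.06 ± 0.14 (SE). About 885 to 3901 fragments lay behind each value. It was the most abundant of the 9 in ECp53KO. Its span is chromosome 11, 72301461 to 72313733, 2.71 Mb from Trp53.

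Of 34 other interferon-induced genes, 32 were tested, 23 with a positive and 9 with a negative fold change, and none had an unadjusted limma p under 0.05 (limma adjusted p at least 0.864, against 4.78% of all genes under 0.05 unadjusted). Their median log2 fold change was 0.13, beside 0.01 over all genes, of which 1.97% were higher at an unadjusted p under 0.05. Without overlap, 7 of the 32 were higher (19.1% of all genes) and 0 lower (16.8%). Rtp4, a chaperone of receptor transport, averaged 59.1 ± 8.40 FPKM in the ECp53KO group and 45.2 ± 3.51 FPKM in Ctrl, and the ubiquitin-like modifier Isg15 186 ± 4.55 and 149 ± 32.2 FPKM (SD, n = 2 each, both with a limma adjusted p of 0.864). Xiap, whose product XAF1 binds, stood at 46.5 and 52.7 FPKM against 43.7 and 48.5 FPKM, so its groups overlapped. Among the 9 genes around XIAP (other inhibitors of apoptosis, their antagonists and caspases), 0 passed adjustment and 1, Birc5, had an unadjusted limma p under 0.05 (2.56 ± 2.08 against 7.45 ± 2.74 FPKM, SD, n = 2 each, limma adjusted p = 0.864). Birc5 encodes survivin and is also a gene of mitosis.

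Tlcd2 encodes a membrane protein of the TLC domain family that affects the fatty acid makeup of membrane phospholipids. It read 22.4 FPKM in ECp53KO_170 and 19.2 FPKM in ECp53KO_172, against 5.25 FPKM in Ctrl_178 and 4.71 FPKM in Ctrl_182. The groups lay 3.65 to 4.74 times apart, and the spread within a group was at most 1.17 times. Means were 20.8 ± 2.26 and 4.98 ± 0.380 FPKM (SD, n = 2 each), with a log2 fold change of 1.86 ± 0.17 (SE). Xaf1 and Tlcd2 were each other's closest match among all tested genes, with a Euclidean distance of 0.287 between their centred log2(FPKM + 1) values over 4 libraries. Genes were set together by their values, so this likeness is a description.

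Mir22hg, the host RNA of the microRNA miR-22, lies directly before Tlcd2 on the same strand, and GENCODE M21 gives Tlcd2 a transcript that begins inside it and shares 206 exonic bases. Its values ran the other way, 5.63 and 5.03 FPKM in ECp53KO against 8.30 and 12.1 FPKM in Ctrl (log2 fold change -0.81 ± 0.22, limma adjusted p = 0.864). No source used here says how reads were divided between the pair, so both values are uncertain. Of the other TLC domain genes (the ceramide synthases, the TRAM translocon proteins and Tlcd1 among them), 8 of 12 were tested, 4 had a positive and 4 a negative fold change, and 0 had an unadjusted limma p under 0.05. The 2 with the smallest p were Tram1 (40.9 ± 3.78 against 32.7 ± 1.88 FPKM, SD, n = 2 each, limma adjusted p = 0.864) and Cers4 (18.0 ± 0.367 against 19.7 ± 1.46 FPKM, limma adjusted p = 0.894).

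AA465934 is a long noncoding RNA that carries the small nucleolar RNA Snord7 in an intron. It read 89.2 FPKM in ECp53KO_170 and 40.8 FPKM in ECp53KO_172, against 1.83 FPKM in Ctrl_178 and 2.63 FPKM in Ctrl_182. The ECp53KO libraries differed from each other by 2.19 times, and the distance between groups was 15.5 to 48.7 times. Means were 65.0 ± 34.3 and 2.23 ± 0.564 FPKM (SD, n = 2 each), with a log2 fold change of 4.26 ± 0.39 (SE). The annotated transcript is short, 471 bases, and only about 9 and 28 fragments lay behind the Ctrl values, beside about 471 and 188 in ECp53KO, so the size of the ratio is imprecise. Snord7 was listed at 0 in every library but ECp53KO_172 (19.2 FPKM). AI450353, a noncoding RNA that overlaps AA465934 by 1208 bases of span in RefSeq, stood at 0.949 and 2.17 FPKM against 0.392 and 0.675 FPKM, and strand was not kept. No gene came close in profile: the nearest, the microRNA locus Mir6396 on chromosome 8, was at a distance of 2.04.

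Aspa encodes aspartoacylase, which splits N-acetylaspartate into aspartate and acetate and whose loss causes Canavan disease. It read 7.02 FPKM in ECp53KO_170 and 5.54 FPKM in ECp53KO_172, against 2.1 FPKM in Ctrl_178 and 2.57 FPKM in Ctrl_182, 2.16 to 3.35 times apart. Means were 6.28 ± 1.05 and 2.33 ± 0.333 FPKM (SD, n = 2 each), with a log2 fold change of 1.12 ± 0.21 (SE). Its partners differed in level. Of 9 genes that make, carry or break down N-acetylaspartate and related compounds, 4 were tested and 3 were listed at 0 in every library (Slc13a3, Folh1 and Rimklb). Nat8l, the enzyme that makes N-acetylaspartate, reached at most 0.161 FPKM. Others stood above Aspa, with Got2 at 49.2 and 35.5 FPKM in ECp53KO against 43 and 33.85 FPKM in Ctrl. Acy3 stood at 11.6 and 7.97 FPKM against 12.85 and 13.8 FPKM. Got1, an aspartate aminotransferase, averaged 7.38 ± 0.438 FPKM in the ECp53KO group and 11.4 ± 0.262 FPKM in Ctrl (SD, n = 2 each, limma adjusted p = 0.864), and Acy1, an aminoacylase, 3.34 ± 0.172 against 2.16 ± 0.426 FPKM (limma adjusted p = 0.864).

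The gene closest in profile to Aspa was Acta2 (distance 0.113), the smooth muscle actin, at 21.3 and 16.8 FPKM against 7.73 and 9.78 FPKM. Acta2 is also on the list of pericyte and smooth muscle markers. Of 10 on that list, 9 were tested, all with a positive fold change, 4 without overlap (19.1% of all genes), 3 with an unadjusted limma p under 0.05 (1.97% of all genes) and 0 past adjustment (limma adjusted p at least 0.864). The summed level of the list was 149 to 180 FPKM in ECp53KO and 98.1 to 117 FPKM in Ctrl, with none listed at 0 throughout. Its part in the Aspa values was not tested. Markers of Schwann cells and oligodendrocytes, the latter a cell type rich in aspartoacylase, summed to 0.813 and 0.891 FPKM in ECp53KO and to 0.627 and 0.525 FPKM in Ctrl over 6 genes, the direction of Aspa at a low level. Sox10 and Mag were listed at 0 in every library, Mbp stood at 0.476 and 0.360 against 0.198 and 0.225 FPKM, and Mog at 0.0541 and 0.0622 FPKM with 0 listed in both Ctrl libraries. The part of these cells in the Aspa values was not tested. Adipocyte markers summed to 0.0792 FPKM at most.

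Ltc4s encodes leukotriene C4 synthase, which joins leukotriene A4 to glutathione. It read 4.03 FPKM in ECp53KO_170 and 8.04 FPKM in ECp53KO_172, against 27.4 FPKM in Ctrl_178 and 16.6 FPKM in Ctrl_182. Both groups were spread, by 2.0 and 1.65 times, and the Ctrl values were 2.06 to 6.80 times above those of ECp53KO. Means were 6.03 ± 2.84 and 22.0 ± 7.65 FPKM (SD, n = 2 each), with a log2 fold change of -1.73 ± 0.37 (SE). Only about 32 and 56 fragments lay behind the ECp53KO values, beside about 210 and 265 in Ctrl, so the size of the ratio is imprecise. At 19.34 Mb from Trp53 it is the farthest of the 9, on the side of lower coordinates. An antisense gene of GENCODE M21, Gm26542, covers 26.4% of its exonic bases and was not analysed here. The closest profile was that of Tk1, a thymidine kinase gene of dividing cells on the same chromosome (distance 0.613), at 1.29 and 1.90 FPKM against 6.83 and 3.69 FPKM. Of the other genes of the leukotriene pathway, 7 of 15 were tested, 2 with a positive and 5 with a negative fold change. None had an unadjusted limma p under 0.05. Lta4h, the hydrolase that competes for leukotriene A4, averaged 69.8 ± 10.5 against 58.3 ± 3.48 FPKM (SD, n = 2 each, limma adjusted p = 0.864). Ggt5, which trims leukotriene C4, averaged 3.96 ± 0.122 against 5.47 ± 1.98 FPKM (limma adjusted p = 0.864).

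The enzyme that starts the pathway, Alox5, was listed at 0 in every library. Its activator Alox5ap, below the filter, stood at 0.551 and 0 FPKM in ECp53KO against 0.837 and 0.559 FPKM in Ctrl. The blood cells known for Ltc4s were scarce as well. Mast cell markers summed to at most 0.292 FPKM over 5 genes, with Cpa3, Mcpt4 and Ms4a2 listed at 0 throughout. Macrophage and other myeloid markers summed to 4.07 to 6.05 FPKM in ECp53KO and 4.76 to 8.18 FPKM in Ctrl over 7 genes, and their part in the Ltc4s values was not tested. The members of that list ran in different directions. Cd68, 0.0723 Mb from Trp53, stood at 0.702 and 0.307 FPKM against 4.31 and 1.08 FPKM, while C1qa, at 1.85 and 0.959 against 0.772 and 0.235 FPKM, and Csf1r, at 0.266 and 0.178 against 0.0693 and 0.0674 FPKM, were higher in both ECp53KO libraries. The other 4, Lyz2 among them, overlapped.

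Usp43, a ubiquitin-specific protease, is the closest of the 9 to Trp53, at 1.66 Mb. It read 5.20 FPKM in ECp53KO_170 and 5.03 FPKM in ECp53KO_172, against 10.7 FPKM in Ctrl_178 and 9.07 FPKM in Ctrl_182. The libraries within a group lay at most 1.18 times apart, and Ctrl was 1.74 to 2.12 times above ECp53KO. Means were 5.12 ± 0.123 and 9.86 ± 1.12 FPKM (SD, n = 2 each), with a log2 fold change of -0.82 ± 0.17 (SE), the smallest of the 9. Of 6 other ubiquitin-specific proteases, 5 were tested and 0 had an unadjusted limma p under 0.05, with Usp31 at 4.05 ± 1.22 against 5.60 ± 0.226 FPKM and Usp19 at 32.7 ± 7.96 against 39.9 ± 2.31 FPKM (SD, n = 2 each, both with a limma adjusted p of 0.864). Its closest profile was that of Pla2g6, a phospholipase on chromosome 15 (distance 0.0351), at 3.88 and 3.75 FPKM against 7.98 and 6.71 FPKM. In GENCODE M21 the antisense gene 9130017K11Rik covers 12.8% of the exonic bases of Usp43, and it was not analysed here.

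Fam64a, now named Pimreg, encodes a regulator of the metaphase-to-anaphase transition that accumulates in dividing cells. It read 2.19 FPKM in ECp53KO_170 and 1.41 FPKM in ECp53KO_172, against 10.3 FPKM in Ctrl_178 and 4.74 FPKM in Ctrl_182. The Ctrl libraries differed from each other by 2.17 times, and the groups by 2.16 to 7.30 times. Means were 1.80 ± 0.555 and 7.51 ± 3.91 FPKM (SD, n = 2 each), with a log2 fold change of -1.54 ± 0.37 (SE), from about 21 to 167 fragments. It moved with the genes of G2 and mitosis, all 17 tested of 20 with a negative fold change, 16 without overlap (16.8% of all genes), a median of -0.97 and a summed level of 34.8 and 43.2 FPKM against 112 and 73.2 FPKM. Of the 17, 13 had an unadjusted limma p under 0.05 (2.82% of all genes were lower in this way) and 0 passed adjustment, with the cyclins Ccnb2 and Ccna2 at 3.17 ± 0.956 against 8.54 ± 1.29 FPKM and at 2.73 ± 0.292 against 7.22 ± 1.75 FPKM (SD, n = 2 each, both with a limma adjusted p of 0.864). The closest profile was that of Gtse1, a gene of the G2 and S phases on chromosome 15 (distance 0.121). In RNA of sorted cells, fewer dividing cells and less of these RNAs per cell cannot be told apart.

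Unc45b encodes a chaperone that folds the myosin heads of striated muscle with Hsp90. It read 23.8 FPKM in ECp53KO_170 and 35.7 FPKM in ECp53KO_172, against 68.1 FPKM in Ctrl_178 and 69.8 FPKM in Ctrl_182, with Ctrl 1.91 to 2.93 times above ECp53KO. Means were 29.8 ± 8.36 and 69.0 ± 1.2 FPKM (SD, n = 2 each), with a log2 fold change of -1.21 ± 0.22 (SE). The values rest on about 1111 to 6489 fragments, the deepest of the 9 genes in Ctrl. Muscle markers did not follow this order. The 12 cardiomyocyte markers summed to 467 and 272 FPKM in ECp53KO and to 264 and 247 FPKM in Ctrl. Of them, 9 of 10 tested were positive, 3 were higher without overlap (19.1% of all genes) and none was listed at 0 throughout. The muscle partners of Unc45b were scarce and below the filter, but lower in both ECp53KO libraries, as Unc45b was. Smyd1 stood at 0.365 and 0.150 against 0.517 and 0.371 FPKM, and Trim63 at 0.0968 and 0.222 against 0.252 and 0.393 FPKM. Levels within the marker list varied widely. The cardiac myosin Myh6, the 1 tested member with a negative fold change, stood at 4.55, 2.37, 4.42 and 3.64 FPKM in ECp53KO_170, ECp53KO_172, Ctrl_178 and Ctrl_182. Myl2, of the same list, stood at 144.8, 81.1, 81.8 and 66.0 FPKM in that order. The part of muscle cells in the Unc45b values was not tested. Of 7 genes of myosin folding and its chaperones, 5 were tested, all with a positive fold change and none with an unadjusted limma p under 0.05. The general paralog Unc45a stood at 16 and 15.4 FPKM against 13.9 and 15.3 FPKM, and the Hsp90 genes Hsp90aa1 and Hsp90ab1 averaged 111 ± 1.65 against 80.0 ± 15.7 and 704 ± 17.6 against 531 ± 52.4 FPKM (SD, n = 2 each, both with a limma adjusted p of 0.864).

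Slfn5os, a long noncoding RNA antisense to Slfn5, followed Unc45b across the libraries. It read 22.2 FPKM in ECp53KO_170 and 39.9 FPKM in ECp53KO_172, against 67.4 FPKM in Ctrl_178 and 77.5 FPKM in Ctrl_182. Means were 31.1 ± 12.5 and 72.5 ± 7.19 FPKM (SD, n = 2 each), with a log2 fold change of -1.25 ± 0.30 (SE). Unc45b was its closest profile of all tested genes (distance 0.219), and the ratio of Slfn5os to Unc45b was 0.932, 1.12, 0.989 and 1.11 in the 4 libraries in the same order. The pair are neighbours on opposite strands whose ends overlap: chr11:82942341-82943406 belongs to both in RefSeq, and 151 exonic bases, chr11:82942491-82942641, to both in GENCODE M21, 13.7% of the exonic bases of Slfn5os and 3.36% of those of Unc45b. The library kit kept no strand, so reads from that stretch cannot be assigned to one of the pair, and the 2 genes are not independent members. Another antisense gene of GENCODE M21, Unc45bos, covers 255 exonic bases of Unc45b (5.7%) and was not analysed here. Slfn5os also shares 559 exonic bases, 50.7% of its own, with Slfn5, which encodes a Schlafen protein. Slfn5, the more abundant, was level, at 143 and 175 FPKM against 161 and 167 FPKM (log2 fold change -0.05 ± 0.18, limma adjusted p = 0.966). No source used here says how reads of the bases shared with Slfn5 were divided, so the Slfn5os values are uncertain.

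**Figure D2:**
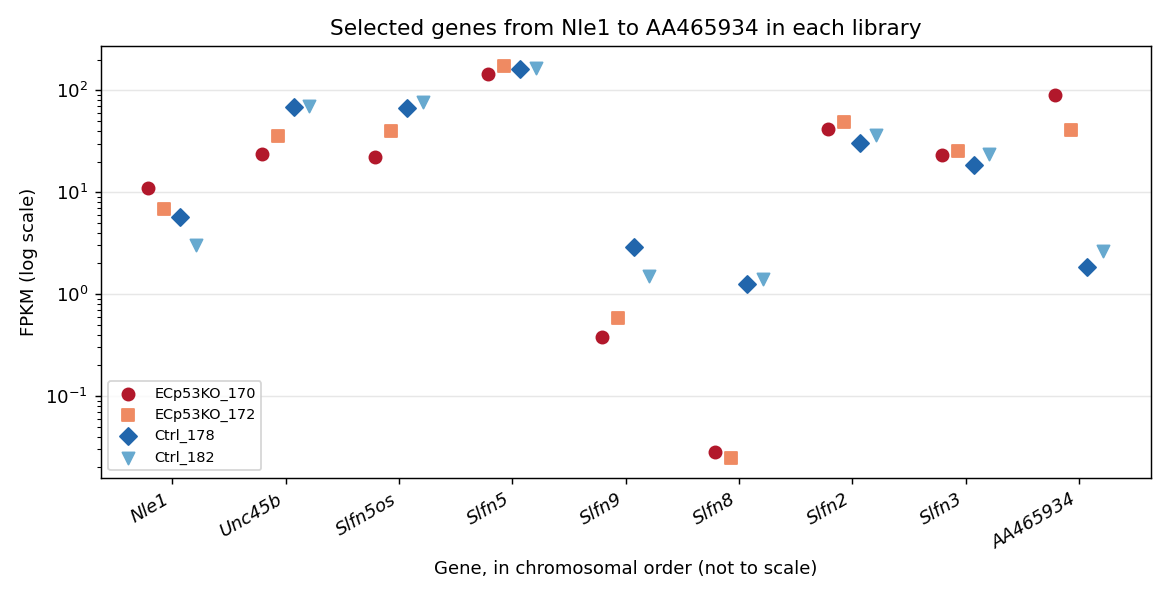
Levels in FPKM (log axis) of genes from Nle1 to AA465934 in chromosomal order, 1 point for each library, in the block that holds Unc45b, Slfn5os and AA465934. Unc45b, Slfn5os, Slfn9 and Slfn8 are lower in both ECp53KO libraries, Nle1, Slfn2 and AA465934 higher, and the groups overlap in Slfn5 and Slfn3.

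Unc45b, Slfn5os and AA465934 lie within one block of chromosome 11, 13.32 to 13.70 Mb from Trp53, that also holds the Schlafen genes. Of 9 Schlafen genes listed, 4 were tested and 0 passed adjustment. Slfn9 averaged 0.484 ± 0.149 against 2.21 ± 1.01 FPKM and Slfn2 45.7 ± 5.12 against 33.2 ± 4.11 FPKM (SD, n = 2 each, both with a limma adjusted p of 0.864), and Slfn8, below the filter, stood at 0.0283 and 0.0246 FPKM against 1.25 and 1.41 FPKM. Directions were mixed within the block, with Nle1, a ribosome assembly gene 2.81 kb before Unc45b, at 11 and 6.82 FPKM against 5.70 and 3.06 FPKM.

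In Ctrl, the order of levels, which FPKM scales by length, began with Slfn5os (67.4 to 77.5 FPKM) and Unc45b (68.1 to 69.8), whose ranges overlap, followed by Xaf1 (31.8) and Ltc4s (16.6 to 27.4). Usp43 (9.07 to 10.7) and Fam64a (4.74 to 10.3) overlapped, as did Fam64a and Tlcd2 (4.71 to 5.25), and Aspa (2.1 to 2.57) and AA465934 (1.83 to 2.63) were lowest and overlapped. In ECp53KO, Xaf1 (133.9 to 138 FPKM) came first and AA465934 (40.8 to 89.2) second. Slfn5os (22.2 to 39.9), Unc45b (23.8 to 35.7) and Tlcd2 (19.2 to 22.4) followed, with Slfn5os overlapping both of the others. Ltc4s (4.03 to 8.04), Aspa (5.54 to 7.02) and Usp43 (5.03 to 5.20) came next, the range of Ltc4s spanning both, and Fam64a (1.41 to 2.19) was lowest.

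The libraries can be set side by side by Xist, the RNA of the inactive X chromosome, which stood at 23.1 and 23.9 FPKM in ECp53KO_172 and Ctrl_182 and at 0.0230 and 0.0352 FPKM in ECp53KO_170 and Ctrl_178. As the groups do not overlap in any of the 9 genes, the direction within a pair is fixed, and only its size is given. Xaf1 was 4.35 times higher in the ECp53KO library of the pair with Xist and 4.21 times in the pair without. Tlcd2 was 4.06 and 4.26 times higher and Aspa 2.16 and 3.35 times. AA465934 was 15.5 and 48.7 times higher. Of the lower genes, Ltc4s was 2.06 and 6.80 times lower in the ECp53KO library, Fam64a 3.37 and 4.69 times, Usp43 1.80 and 2.05 times, Unc45b 1.96 and 2.86 times and Slfn5os 1.94 and 3.03 times. Except for Xaf1, the gap was wider in the pair with little Xist, which is 1 library against 1 and was not tested.

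Of 365 tested genes 1 to 20 Mb from Trp53, members included, 26 (7.12%) had an unadjusted limma p under 0.05, where 4.78% of all genes did, and 10 (2.74%) a p under 0.01, where 0.812% did. Without the 9 members, 17 of 356 (4.78%) had a p under 0.05. Since the members were taken from this stretch for their separation, leaving them out lowers its share by construction, and neither share is read as a result. The median absolute log2 fold change was 0.15 in the stretch, with or without the members, beside 0.17 over all genes. By distance and with the members, the share with a p under 0.05 was 5 of 69 (7.25%) under 1 Mb, 5 of 50 (10%) at 1 to 5 Mb, 7 of 134 (5.22%) at 5 to 10 Mb, 14 of 181 (7.73%) at 10 to 20 Mb and 29 of 526 (5.51%) farther away. The 3 bins that hold members had 1 of 46, 6 of 133 and 10 of 177 without them. The 9 genes rank 2 to 10 by p among the 365. The first, Snord4a, a small nucleolar RNA locus listed at 0 in both Ctrl libraries and at 314 and 361 FPKM in ECp53KO (limma adjusted p = 0.000151), was not among those picked. After Snord4a and Mir22hg, the smallest p-values among the others were those of the pseudogene Gm12338 (0.852 and 0 against 3.11 and 1.95 FPKM), Tvp23b, a Golgi membrane protein gene (24 and 24.4 against 15.5 and 17.6 FPKM), Ift20, a gene of ciliary transport (58.9 and 50.7 against 36.9 and 38.0 FPKM), and Slfn9, each with a limma adjusted p of 0.864.

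**Figure D3:**
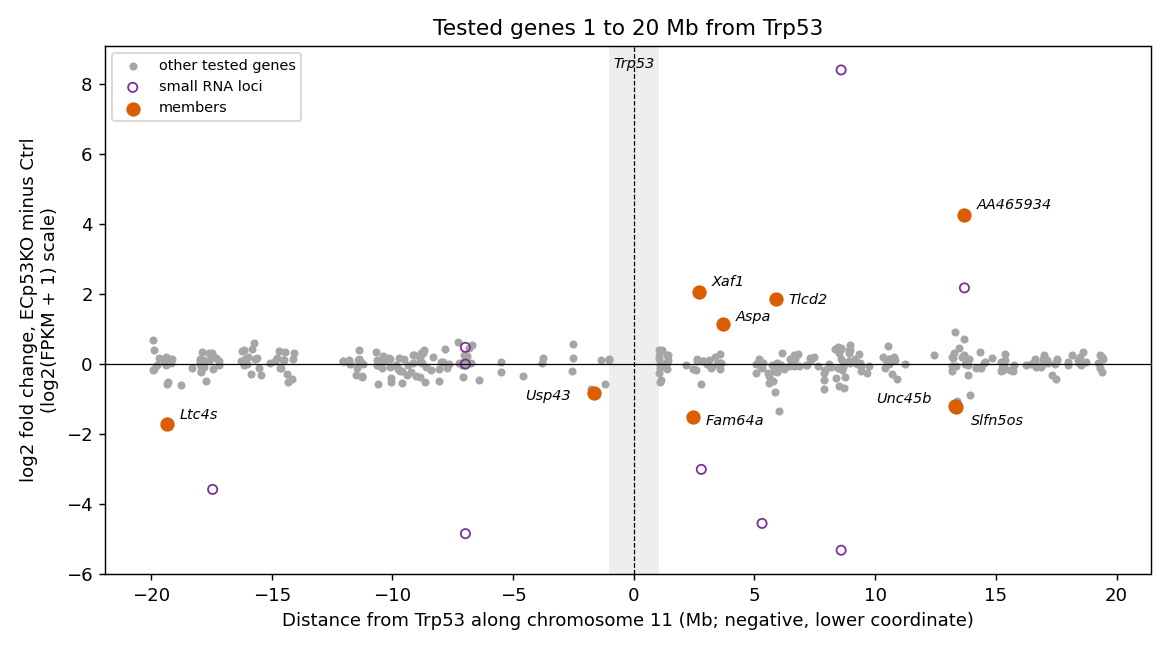
Log2 fold change (ECp53KO minus Ctrl on the log2(FPKM + 1) scale) of the 365 tested genes 1 to 20 Mb from Trp53 against signed distance from it in Mb. Orange points are the 9 members, grey points other genes and open circles small RNA loci. Members lie 1.66 to 19.34 Mb away, 2 on the side of lower and 7 on the side of higher coordinates.

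The nearest tested protein-coding gene on either side gave 16 distinct neighbours that are not members. Of these, 8 had no overlap between groups (35.9% of all genes), 3 had an unadjusted limma p under 0.05 (4.78% of all genes) and 0 passed adjustment (limma adjusted p at least 0.864). Their median absolute log2 fold change was 0.18, beside 0.17 over all genes, and 5 of the 16 exceeded 0.5, namely Nle1 (0.90), Dhrs7c (-0.72), Smtnl2 (-0.59), Mgat4b (-0.57) and Maml1 (-0.52). Beside Xaf1, the Mediator gene Med31 stood at 13.9 and 9.68 against 11.7 and 10.4 FPKM, and Smtnl2 at 6.83 and 13.4 against 14.7 and 15.2 FPKM. Beside Tlcd2, the splicing factor gene Prpf8 stood at 43.9 and 52.6 against 51.6 and 46.1 FPKM and Wdr81 at 4.0 and 4.18 against 4.68 and 4.33 FPKM. Beside AA465934, Slfn3 stood at 23.3 and 25.4 against 18.6 and 23.6 FPKM. The 3 with an unadjusted p under 0.05 were Dhrs7c beside Usp43 (1.59 and 2.03 against 3.41 and 3.81 FPKM), Mgat4b beside Ltc4s (31.3 and 35.7 against 56.0 and 44.9 FPKM) and Nle1. Dhrs7c and Mgat4b had the sign of the member they adjoin, and Nle1 the opposite sign.

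**Figure D4:**
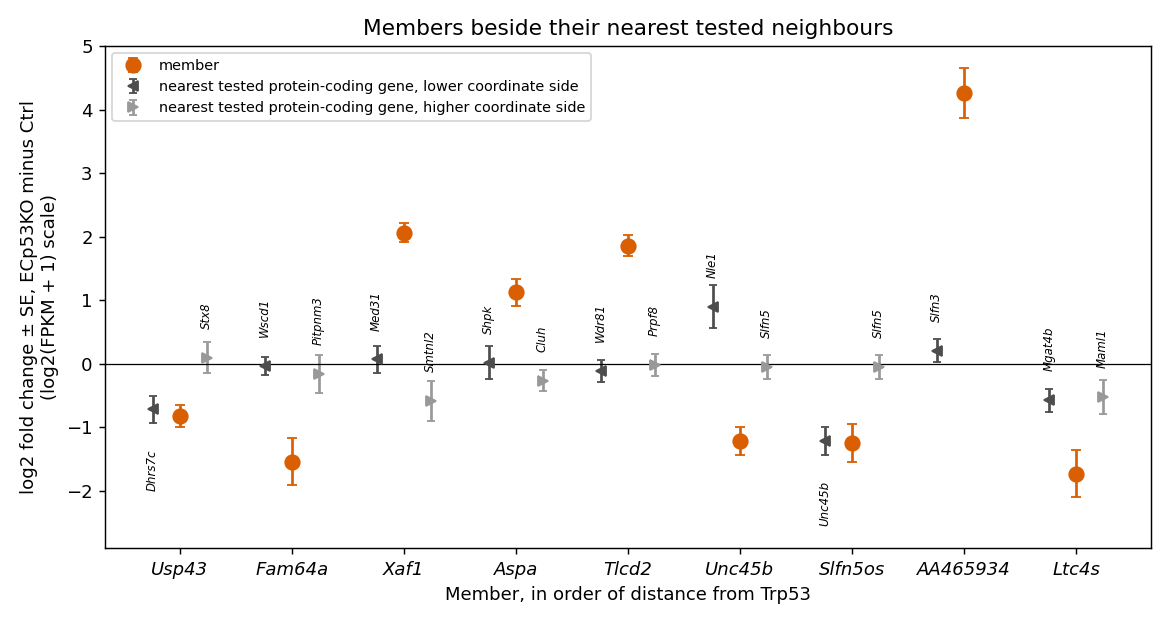
Log2 fold change with its SE (ECp53KO minus Ctrl, log2(FPKM + 1) scale) of each member (orange) and of the nearest tested protein-coding gene on either side (grey triangles, 1 of the 2 beside AA465934 not shown), with members in order of distance from Trp53. The neighbours shown lie between -0.72 (Dhrs7c) and 0.90 (Nle1) apart from Unc45b, itself a member, while members lie at -1.73 to -0.82 and at 1.12 to 4.26.

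A listed 0 may stand for an estimate that failed, and no fold is given against it. At the edges of the stretch, the genes without overlap just inside it were Slc25a11 (1.05 Mb, 29.5 and 27.6 against 26.4 and 25.7 FPKM) and Scgb3a1 (19.92 Mb, 12.3 and 7.69 against 4.74 and 7.0 FPKM). Just outside lay Med11 (0.860 Mb, 30.5 and 21.0 against 18.9 and 19.8 FPKM) and Tgtp1 (20.59 Mb, 6.31 and 9.84 against 5.70 and 5.97 FPKM).

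The markers of the endothelial label summed to 5670 to 6196 FPKM over 10 genes in the 4 libraries. At an unadjusted limma p under 0.05 there were 0 of them (4.78% of all genes). Without overlap, 4 were higher in ECp53KO (19.1% of all genes) and 3 lower (16.8%), so the sum does not show that each was level. Lymphocyte markers summed to 0.845 FPKM at most, with Cd3e and Nkg7 listed at 0 in every library, fibroblast markers to 26.2 to 30 FPKM and lymphatic endothelial markers to 32.5 to 51.7 FPKM. Erythroid markers had higher values in ECp53KO, 5 of 5 tested without overlap (19.1% of all genes). Of these, 3 had an unadjusted limma p under 0.05 (1.97% of all genes were higher in this way) and 0 passed adjustment (limma adjusted p at least 0.864). They summed to 411 and 89.2 FPKM in the ECp53KO libraries and to 60.3 and 33.5 FPKM in Ctrl. Their part in the members' values was not tested.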

How the data were processed

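RNA of sorted heart endothelial cells was sequenced in 4 libraries, 2 of each group, with a polyadenylated, unstranded kit, per the labels' protocols. The authors deposited FPKM per gene symbol. Cufflinks 2.2.1, TopHat2 2.1.0, Trimmomatic 0.36, FastQC 0.11.5, bcl2fastq 2.17 and mm10 appear in the submitters' processing notes, without roles; for annotation and filters nothing is stated there. Depth, estimated from the most frequent low value of FPKM times length (1063 genes with 1 transcript), was about 9800000 to 11200000 fragments in 3 libraries and 22400000 in Ctrl_182; fragment numbers use the longest GENCODE M21 transcript and are approximate. FPKM columns summed to 603783 to 732051.

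The 11332 genes whose mean reached 1 FPKM were fitted on the log2(FPKM + 1) scale with limma 3.58.1 in R 4.3.3 (intensity trend, two-sided, Benjamini-Hochberg adjustment, threshold 0.05, 2 residual and 3.15 prior degrees of freedom), checked on simulated data. With 2 libraries a group, the smallest p of an exact permutation test is 0.333, so none was run. Positions are RefSeq's on GRCm38.p6, the assembly called mm10 by genome browsers (23143 symbols matched, 1086 by synonym, 117 not). Distances run between gene ends. Members and gene lists were chosen with earlier results of these data known. Named genes are the members, their nearest tested protein-coding neighbours and overlapping genes, and the closest profile of each. Of each list, those past the threshold or else the 2 of smallest p are named. So are the 6 other genes of smallest p in the stretch and the genes at its edges. Others named for a role (Xiap, Nat8l, Alox5, Alox5ap, Cd68, Smyd1, Trim63, Myh6, Myl2, Got2, Acy3, Unc45a, Slfn8) were chosen after their values were seen. Some genes that this rule names are not reported here.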

Additional observations from a re-analysis of the deposited data

How the results depend on the processing

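Over 12 alternatives, none of the 108 recomputed log2 fold changes of the 9 genes changed sign, and 101 moved by less than the spread between libraries. The other 7 were of Xaf1, Tlcd2, Aspa and Usp43, whose libraries agree closely; Xaf1 ran from 1.96 to 2.09 and Tlcd2 from 1.74 to 2.04. The counts of 108 and 101 are not read as a result. As the groups do not overlap in any of the 9 genes, leaving out a library cannot change a sign. The settings with no filter, without small RNA loci, with robust shrinkage and with Xist as a covariate cannot move these fold changes. Leaving out 1 library moved AA465934 between 3.70 and 4.81, Ltc4s between -2.15 and -1.30, Fam64a between -2.02 and -1.05 and Slfn5os between -1.66 and -0.84. No replicate number occurs in both groups, so no fit with a replicate block was made. A fit that pairs the libraries by Xist, through a covariate for a level above 1 FPKM, left 1 residual degree of freedom, and 2 genes were called higher and 13 lower. Over all genes, 3 were called higher and 10 lower by limma. Higher calls were 5 with a pseudocount of 0.1, 5 with robust shrinkage, 1 with no filter and 1 to 21 without a library; lower calls were 4 without small RNA loci and 12 to 53 without a library. The 17 other genes of the stretch with an unadjusted p under 0.05 became 26 of 499 with no filter (5.21%, beside 5.39% of all genes), where more genes are tested. Without a library they were 12 to 53, the 53 of 354 without ECp53KO_172 (15.0%, beside 15.7% of all genes); the cause was not tested. Depth limits AA465934 in Ctrl, and Fam64a and Ltc4s in ECp53KO, most.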
